A study of Homo sapiens with 9 samples.

Results

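The comparison set 3 CDKN2A-silent lines against 6 CDKN2A-expressing lines among the 9 oesophageal adenocarcinoma cell lines of an RNA-seq series. The groups were chosen by the CDKN2A reads themselves: the lines labelled FLO-1, OAC_5.1_C and JH_EsoAd1 held at most 3 counts of the gene, and OACP4_C, OE19, SK-GT-4, ESO-26, OE33 and ESO-51 each held more than 10 CPM, counts scaled by library total. All 9 are untreated human tumour lines that the labels place in oesophageal adenocarcinoma, grown to near confluence under the same description. Each line has 1 column of counts, and the design text mentions 3 technical replicates per line, so the line is the replicate here and p-values measure the spread between lines. Every difference below is therefore between 3 and 6 unrelated lines and cannot be told apart from whatever else separates them.

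CDKN2A encodes a pair of unrelated proteins from separate first exons, and the gene-level counts pool both. The p16 protein blocks the kinases CDK4 and CDK6, which keeps RB proteins active and E2F transcription factors held back, and the ARF protein restrains MDM2. Its neighbour CDKN2B encodes p15, a close relative of p16, and MTAP encodes the enzyme that recycles the methylthioadenosine left by polyamine synthesis. Loss of this part of chromosome 9p21 is a common lesion of oesophageal adenocarcinoma, and MTAP is often lost with it.

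Because silencing of these genes can also go with DNA methylation, the windows around their start sites are shown, with every CG dinucleotide, the site of DNA methylation, in capitals. They are RefSeq sequences of build GRCh38.p14, 250 bases before to 50 bases after each start, read 5′ to 3′ on the gene's strand. The series holds no methylation or DNA data, so the windows are background to the expression values. The CDKN2A windows lie on the minus strand at chr9:21995275-21995574, at the ARF start, and at chr9:21974808-21975107, at the p16 start. The CDKN2B window is chr9:22009256-22009555 on the minus strand and the MTAP window chr9:21802386-21802685 on the plus strand.
CDKN2A (ARF start): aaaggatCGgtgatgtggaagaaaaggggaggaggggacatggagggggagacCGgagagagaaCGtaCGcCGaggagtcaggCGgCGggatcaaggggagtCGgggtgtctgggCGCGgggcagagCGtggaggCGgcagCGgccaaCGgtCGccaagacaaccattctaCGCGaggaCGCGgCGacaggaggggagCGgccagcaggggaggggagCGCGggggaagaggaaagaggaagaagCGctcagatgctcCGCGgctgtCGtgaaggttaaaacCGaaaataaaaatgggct
CDKN2A (p16 start): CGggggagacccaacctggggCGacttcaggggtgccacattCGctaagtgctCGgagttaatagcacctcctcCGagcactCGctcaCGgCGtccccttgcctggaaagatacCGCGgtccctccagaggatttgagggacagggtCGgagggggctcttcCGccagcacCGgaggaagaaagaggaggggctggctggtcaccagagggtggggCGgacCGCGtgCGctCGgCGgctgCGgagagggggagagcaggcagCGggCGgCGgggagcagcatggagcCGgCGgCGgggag
CDKN2B: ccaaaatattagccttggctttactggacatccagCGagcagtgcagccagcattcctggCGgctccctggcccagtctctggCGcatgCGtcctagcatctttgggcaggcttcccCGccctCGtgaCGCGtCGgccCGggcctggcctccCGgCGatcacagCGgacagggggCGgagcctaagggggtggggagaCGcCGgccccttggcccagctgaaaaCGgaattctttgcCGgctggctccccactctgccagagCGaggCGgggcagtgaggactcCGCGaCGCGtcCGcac
MTAP: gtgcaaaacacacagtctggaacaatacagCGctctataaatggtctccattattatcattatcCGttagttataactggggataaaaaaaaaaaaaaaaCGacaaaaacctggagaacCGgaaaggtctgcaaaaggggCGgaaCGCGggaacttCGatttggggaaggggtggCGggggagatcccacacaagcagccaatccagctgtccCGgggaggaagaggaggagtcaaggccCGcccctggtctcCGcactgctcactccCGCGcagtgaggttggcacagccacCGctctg
The ARF window holds 28 CG dinucleotides, the p16 window 26, the CDKN2B window 25 and the MTAP window 15. Of all RefSeq windows of the same length, 26.2%, 30.1%, 32.0% and 48.9% hold at least as many, respectively.

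The libraries held 16801179 to 69881539 counts in named genes, with the silent lines at 69881539 (FLO-1), 50643672 (OAC_5.1_C) and 24290184 (JH_EsoAd1). Mitochondrial genes took 24.7% of the JH_EsoAd1 counts, 4.41% in FLO-1 and 2.82% in OAC_5.1_C, against 1.48% to 7.04% in the expressing lines; with those genes left out of the totals, edgeR again called 0 genes in either direction. The epithelial markers EPCAM and CDH1 were high in all 3 silent lines (132 to 547 CPM and 127 to 467 CPM). Among the expressing lines both were low in ESO-26 (EPCAM 5.14 CPM, CDH1 0.173 CPM) and OE33 (EPCAM 0.191 CPM, CDH1 21.8 CPM). The keratins KRT8, KRT18 and KRT19 were at 13.39, 4.559 and 137.6 CPM in ESO-26. In OE33 they were at 914.4, 250.3 and 16.18 CPM, so OE33 was not low for every epithelial marker. The medians of the squamous and basal, epithelial junction and senescence-associated lists are therefore also given without these lines. ERBB2, amplified in OE19 as that line is known, stood at 187 CPM in the library labelled OE19 and at 18240 CPM in the one labelled SK-GT-4. Both are in the expressing group, so an exchange of these 2 names would not move a line between the groups. Statements below about OE19 or SK-GT-4 alone follow the labels, and would pass to the other line if the names were exchanged.

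CDKN2A counts were 3 in FLO-1, 0 in OAC_5.1_C and 1 in JH_EsoAd1. A count of 0 at the depth of OAC_5.1_C allows up to 0.0637 CPM, taking 3 counts as the floor. In the expressing lines CDKN2A ran from 15.3 CPM in SK-GT-4, the line nearest the threshold, through a median of 44.0 to 156 CPM in OE19. No line fell between 0.0493 and 15.3 CPM, so the threshold separated the groups with a wide empty interval. These values chose the groups and carry no test.

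CDKN2B followed the same division. It held 5 counts in FLO-1 (0.0641 CPM, 95% exact Poisson interval 0.0208 to 0.149, covering counting error only), 1 in OAC_5.1_C and 0 in JH_EsoAd1. In the expressing lines its level was 9.67 to 80.2 CPM with a median of 26.5. MTAP differed among the silent lines: OAC_5.1_C held 5 counts and JH_EsoAd1 held 1, whereas FLO-1 held 267 counts, or 3.42 CPM (3.02 to 3.86). The expressing lines held 20.95 to 144 CPM of MTAP with a median of 34.8, so FLO-1 lay between the other silent lines and every expressing line.

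**Figure D1:**
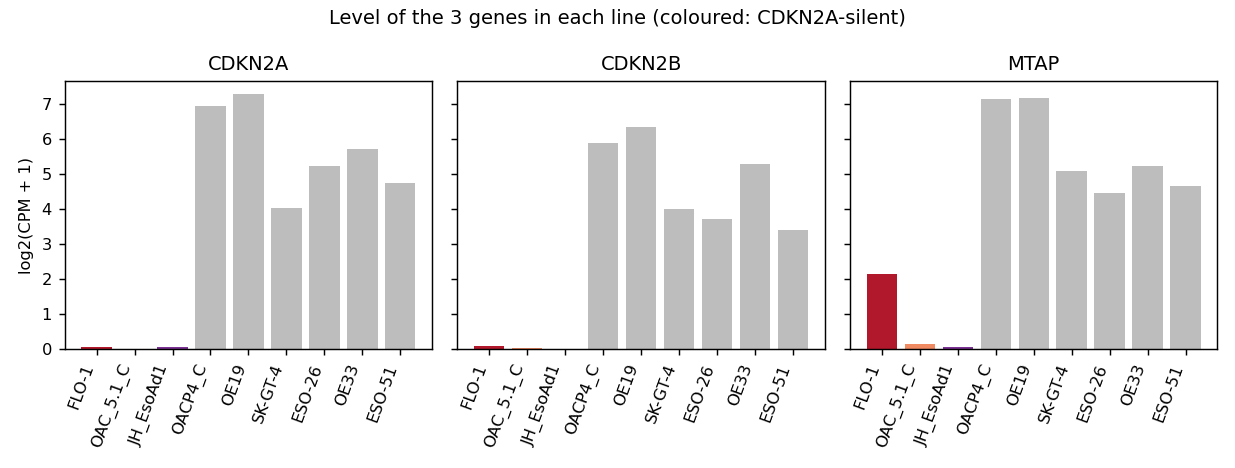
Levels of CDKN2A, CDKN2B and MTAP in each line as log2(CPM + 1), with the 3 silent lines in colour and the 6 expressing lines in grey. CDKN2A and CDKN2B are near 0 in FLO-1, OAC_5.1_C and JH_EsoAd1, and MTAP reaches 3.42 CPM in FLO-1 alone of the 3.

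The stretch of low expression had a different extent in each silent line. Of 40 genes listed around the locus, 13 had a median of at least 1 CPM in the expressing lines. The others, most of them type I interferon genes, had a lower median. Some of these were still read in single lines, such as LRRC19 at 20.5 CPM in ESO-51 and TUSC1 at 11.6 CPM in SK-GT-4. Below 10% of the expressing-line median were 3 of the 13 in FLO-1 (MTAP, CDKN2A and CDKN2B), 6 in OAC_5.1_C and 7 in JH_EsoAd1, against 0 or 1 in each expressing line. In FLO-1 the genes interleaved with the silent ones were read: CDKN2B-AS1, an antisense RNA gene whose start lies beside the ARF start, held 573 counts (7.34 CPM) against 1.49 to 4.75 CPM in the expressing lines. DMRTA1, a transcription factor gene on the far side of CDKN2B, held 531 counts (6.80 CPM) in FLO-1 against 0.0722 to 7.47 CPM. In OAC_5.1_C and in JH_EsoAd1, both CDKN2B-AS1 and DMRTA1 had 0 counts. No source used here states whether reads were counted by strand, so reads of CDKN2B-AS1 and of genes it overlaps cannot be told apart.

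On the other side of MTAP, JH_EsoAd1 stood alone. KLHL9, an adaptor of a ubiquitin ligase, held 0 counts in JH_EsoAd1, 24.2 CPM in FLO-1 and 33.7 CPM in OAC_5.1_C, against 35.3 to 44.7 CPM in the expressing lines. FOCAD, the gene of a focal adhesion protein, held 1 count in JH_EsoAd1 but 65.7 CPM in FLO-1 and 44.5 CPM in OAC_5.1_C, both within the expressing range of 31.2 to 76.2 CPM. HACD4, a fatty acid elongation gene next to FOCAD, also had 0 counts in JH_EsoAd1, although its expressing-line levels of 0.181 to 1.98 CPM were low. The next gene outward, MLLT3, was read in JH_EsoAd1 at 6.21 CPM and was lowest in OAC_5.1_C at 1.23 CPM, below the expressing range of 4.24 to 52.9 CPM. Past DMRTA1, TUSC1 was at 3.715, 0 and 1.72 CPM in FLO-1, OAC_5.1_C and JH_EsoAd1, against 0 to 11.6 CPM in the expressing lines. Farther out, CAAP1, PLAA and IFT74 were read in all 3 silent lines. CAAP1 was at 20.6, 77.3 and 25.9 CPM in FLO-1, OAC_5.1_C and JH_EsoAd1. KLHL9 was the 1 member, of 15 tested, with every silent line below every expressing line (6.67%, against 0.835% of all genes). The antisense gene AL359922.2, annotated between the starts of MTAP and CDKN2A and named after its values were seen, had 0 CPM in all 3 silent lines and 0.693 to 4.75 CPM in the others (edgeR adjusted p = 0.228).

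**Figure D2:**
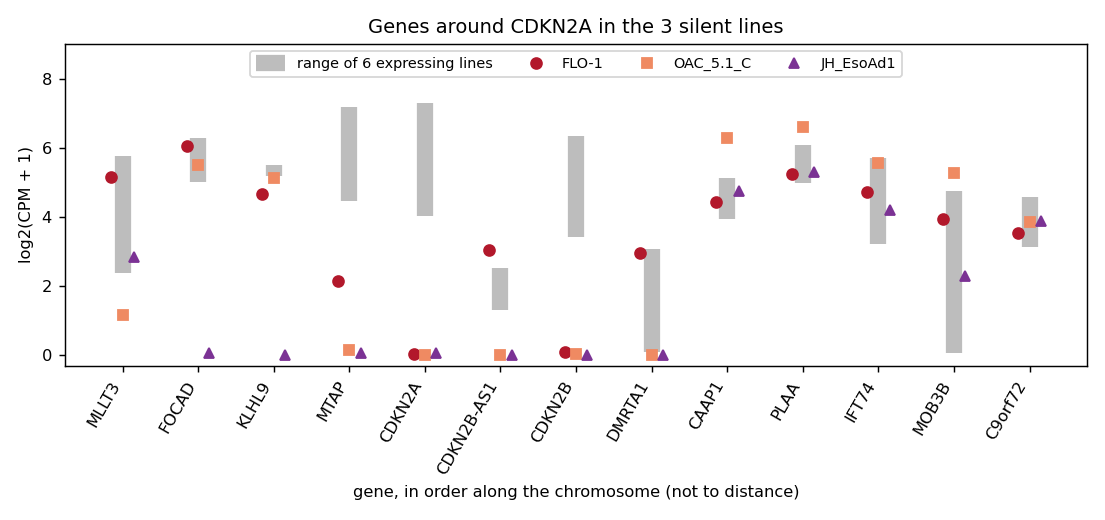
The 13 genes around CDKN2A with an expressing-line median of at least 1 CPM, in chromosomal order but not to distance, as log2(CPM + 1). Grey bars span the 6 expressing lines and symbols mark the silent lines: JH_EsoAd1 is at or near 0 from FOCAD to DMRTA1, OAC_5.1_C from MTAP to DMRTA1, and FLO-1 at CDKN2A and CDKN2B with MTAP lowered.

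Across all genes, no gene passed the test between the groups. Of 19876 genes tested with CDKN2A, CDKN2B and MTAP left out, edgeR's quasi-likelihood test with Benjamini-Hochberg adjustment called 0 higher (0.0%) and 0 lower (0.0%) in the silent lines at an adjusted p under 0.05, and the smallest adjusted p was 0.0579. At an unadjusted p under 0.05 there were 536 higher (2.7%) and 364 lower (1.83%). DESeq2 called 70 higher (0.352%) and 39 lower (0.196%), and limma-trend called 10 higher (0.0503%) and 0 lower (0.0%). DESeq2 gave no adjusted p for 675 genes, among them TP63, FAT2, KRT4, MMP1 and DCN, which could therefore not be called by it. Of the DESeq2 calls, 49 of the 70 higher and 17 of the 39 lower had groups that did not overlap. The call thus depended on the tool, and in what follows "above" and "below" describe the values of these 9 libraries.

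Every silent line lay above every expressing line for 284 genes (1.43%) and below for 166 (0.835%). The expression filter keeps genes read in the silent lines alone, and such genes could hardly fail to lie above. A gap of at least 1 log2 unit, a 2-fold distance between the nearest lines on the log2(CPM + 1) scale, remained for 22 genes above (0.111%) and 2 below (0.0101%). Those 2 were RNF125 and CRYL1. A further view asked which of the 19876 genes tested were on in one group only. At 1 CPM or more in all silent lines and under 1 CPM in all expressing lines were 29 of them. Among these were TP63, GJA1 (the gap junction protein connexin 43) and IL7R (the interleukin-7 receptor). In the reverse sense there was 1, NOTUM, a secreted enzyme that inactivates Wnt ligands, at 0.154, 0.212 and 0.591 CPM in FLO-1, OAC_5.1_C and JH_EsoAd1 and at 1.23 to 87.0 CPM in the others. These genes were named after their values were seen. The counts of 29 and 1 cannot be set against each other, since the first needs 3 lines at 1 CPM or more and the second 6.

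The 10 protein-coding genes above with the smallest p in the edgeR fit, none of them called, are described one by one. ADAMTS12, a secreted metalloprotease, was at 6.46 CPM in FLO-1, 43.7 in OAC_5.1_C and 11.8 in JH_EsoAd1, against 0 CPM in 4 expressing lines and at most 0.0382 CPM in the other two. Its difference was 4.004 ± 0.766 (silent minus expressing, log2(CPM + 1), SE, n = 3 and 6), with adjusted p = 0.0579 by edgeR, 4.8e-15 by DESeq2 and 0.0485 by limma-trend. The log2(CPM + 1) scale understates the ratio of genes this low in one group.

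Both type IV collagen chains in this set were uneven among the silent lines. COL4A6 was at 98.1, 2.42 and 90.7 CPM in FLO-1, OAC_5.1_C and JH_EsoAd1, against 0.0722 to 0.513 CPM in the expressing lines (difference 4.67 ± 1.60, adjusted p = 0.119 by edgeR). COL4A4 was at 120, 7.90 and 27.6 CPM against 0.505 to 2.46 CPM (3.84 ± 1.10, adjusted p = 0.174 by edgeR). In both, the lowest silent line was OAC_5.1_C and still lay above all 6.

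The same line was lowest for IGFBP7, a secreted protein that binds insulin-like growth factors, at 108, 0.849 and 131 CPM against 0.0577 to 0.469 CPM, and for VGLL3, a cofactor of TEAD transcription factors, at 382, 0.658 and 27.2 CPM against 0.0446 to 0.346 CPM. Without OAC_5.1_C, edgeR called 6 genes higher, among them COL4A6, COL4A4, IGFBP7 and VGLL3. For these 4 genes the call therefore rested on which silent lines entered the fit.

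The remaining 5 were more alike across the silent lines or lowest in another of them. DAW1, a factor for assembling ciliary dynein arms, was at 3.96, 11.3 and 4.43 CPM in FLO-1, OAC_5.1_C and JH_EsoAd1 against at most 0.173 CPM (2.68 ± 0.42, adjusted p = 0.228 by edgeR and 0.0485 by limma-trend). DIO2, the enzyme that activates thyroid hormone, was at 2.22, 9.74 and 3.25 CPM against at most 0.173 CPM. PDE1C, a calcium-dependent phosphodiesterase, was at 1.03, 8.30 and 8.67 CPM against at most 0.0447 CPM, and HTRA3, a secreted serine protease, at 0.922, 12.5 and 35.9 CPM against at most 0.115 CPM. FLO-1 was thus lowest for both of the latter and highest for SNCG, the synuclein gamma gene, with 153, 37.0 and 4.58 CPM against 0.115 to 1.91 CPM. All 10 passed DESeq2, with adjusted p from 4.8e-15 (ADAMTS12) to 9.52e-07 (SNCG).

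Below, the 10 genes were more moderate in size and mostly read in both groups. KDM1B, a histone H3 lysine 4 demethylase, was at 8.80, 10.9 and 15.5 CPM in FLO-1, OAC_5.1_C and JH_EsoAd1, against 29.4 to 62.7 CPM with a median of 43.1 (difference -1.85 ± 0.26, SE, adjusted p = 0.393 by edgeR and 4.18e-05 by DESeq2). CRYL1, an NAD-dependent dehydrogenase of the glucuronate pathway, was at 5.51, 5.56 and 7.39 CPM against 18.2 to 70.9 CPM (-2.24 ± 0.30). RNF125, an E3 ubiquitin ligase that acts on the RNA sensor RIG-I, was at 0.743, 1.34 and 0.148 CPM against 5.34 to 19.4 CPM (-2.99 ± 0.42). In all 3 genes the groups lay apart, and the silent lines lay close together for KDM1B and CRYL1 but were more spread for RNF125.

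The next 4 encode an inhibitor and a set of enzymes. DEPTOR, an inhibitor of the mTOR kinase, was at 0.436, 0.0849 and 1.63 CPM against 3.67 to 140 CPM, and DGAT1, the last step of triglyceride synthesis, at 26.0, 17.8 and 24.0 CPM against 37.0 to 83.9 CPM. PYCR1, which makes proline in mitochondria, was at 57.5, 30.4 and 61.1 CPM against 73.3 to 183 CPM. DECR2, a peroxisomal enzyme for unsaturated fatty acids, was at 3.63, 2.38 and 9.80 CPM against 15.7 to 29.1 CPM. Of the set, PYCR1 (adjusted p = 0.063) and TMEM120A (0.0734) missed the DESeq2 threshold as well.

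A pair of transcription factor genes and a membrane protein gene made up the rest. KLF9, a Krüppel-like factor, was at 1.47, 3.80 and 3.30 CPM against 5.54 to 34.4 CPM. PRDM16, known for brown fat identity, had 0, 0.0212 and 0 CPM against 0.231 to 18.2 CPM, and its lowest expressing lines were themselves under 1 CPM. TMEM120A, which encodes the membrane protein, was at 17.4, 8.87 and 9.85 CPM against 24.2 to 56.2 CPM.

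**Figure D3:**
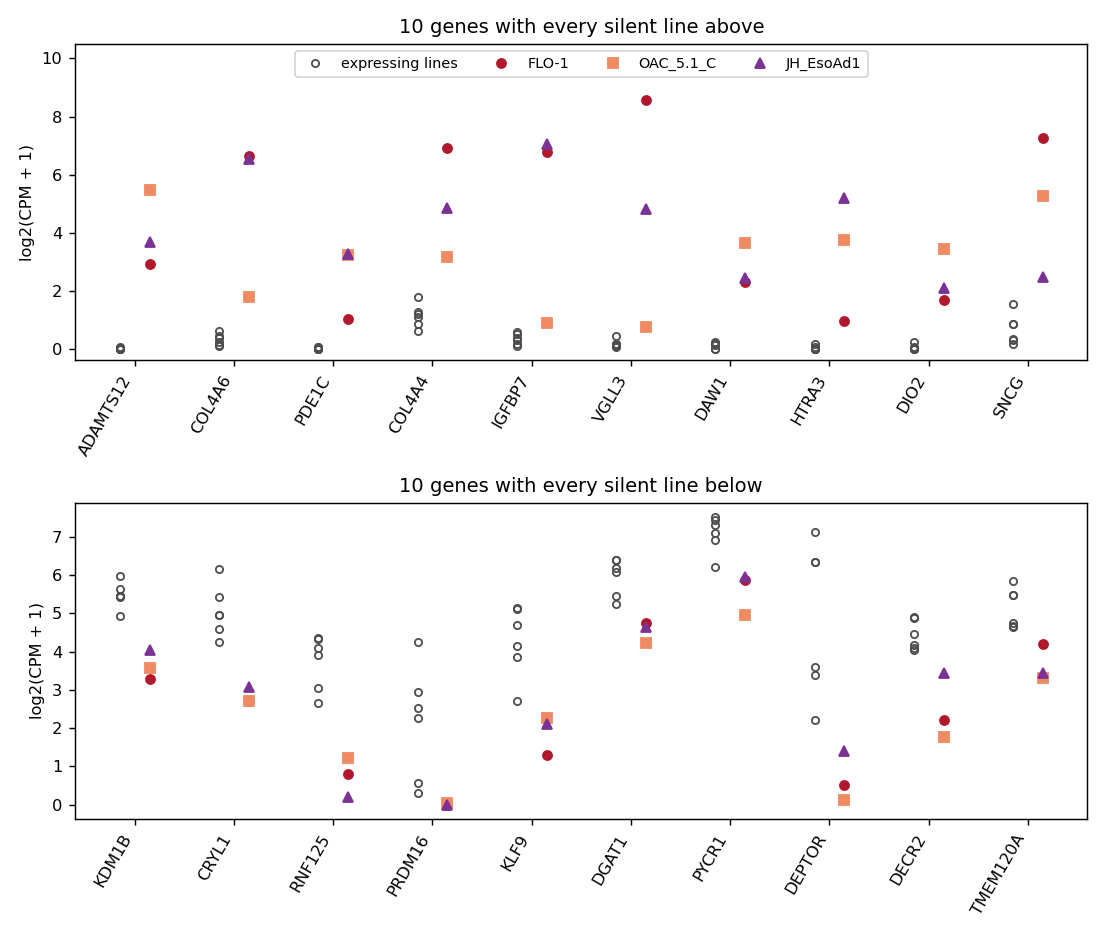
The 10 protein-coding genes above (upper panel) and 10 below (lower panel) with the smallest edgeR p among genes whose groups do not overlap, none called, as log2(CPM + 1) per line. Open circles are the 6 expressing lines and filled symbols the 3 silent lines, which spread widely for COL4A6, IGFBP7 and VGLL3 and lie close together for KDM1B, CRYL1 and DGAT1.

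RNA levels of CDK4 and CDK6, whose proteins p16 blocks, did not separate the groups, nor did those of CCND1 and RB1. Protein and kinase activity were not measured. CDK4 was at 34.3, 73.8 and 50.5 CPM in FLO-1, OAC_5.1_C and JH_EsoAd1, inside or next to the expressing range of 38.6 to 103 CPM (difference -0.07 ± 0.38). CDK6 was at 695, 281 and 283 CPM against 82.8 to 1549 CPM. CCND1, the cyclin partner of both kinases, was at 106, 853 and 1277 CPM against 39.5 to 756 CPM (1.08 ± 1.27), and RB1, the retinoblastoma gene, at 157, 91.3 and 94.5 CPM against 62.8 to 142 CPM (0.17 ± 0.34). All 4 overlapped between the groups, with an edgeR adjusted p of 0.999. They were named for their role, outside the rule that ranks genes by p.

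Of the 30 listed G1 genes (cyclins, kinases, inhibitors, RB and E2F families), all were tested and 0 were called by edgeR. The silent mean was higher for 21 and lower for 9, with a median difference of 0.39, against 0.02 over all genes tested, and on the deposited FPKM scale (fragments scaled by gene length and library total) the list's median was -0.29 against -0.25 over all genes. Every silent line lay above every expressing line for 3 of 30 (against 1.43% of all genes), CDK2, E2F1 and E2F4, and below for 0. CDK2, the kinase of the G1 to S step, was at 43.1, 69.9 and 93.1 CPM in FLO-1, OAC_5.1_C and JH_EsoAd1, against 19.2 to 38.2 CPM with a median of 26.1 (1.25 ± 0.36, adjusted p = 0.925 by edgeR). E2F4 was at 77.4, 102 and 104 CPM against 44.3 to 74.4 CPM (0.67 ± 0.17), a difference that became -0.04 on the deposited FPKM scale. E2F1, the activator that RB restrains, was at 54.9, 52.8 and 53.2 CPM against 6.89 to 50.8 CPM, so 1 expressing line (ESO-26) lay just under the silent lines. CDC25A, the phosphatase that activates CDK2, reached 25.3 CPM in an expressing line and stood at 23.4 to 43.4 CPM in the silent lines, and CKS1B, a small CDK subunit, overlapped likewise.

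Replication genes that E2F factors are known to drive gave the most uniform direction of the lists. All 39 tested members had a higher mean in the silent lines. By edgeR 0 were called, and 1, RPA3, was called higher by DESeq2 (adjusted p = 0.0435), against 0.352% of all genes. The median difference was 0.65. Every silent line lay above every expressing line for 8 of 39 (20.5%, against 1.43% of all genes) and below for 0, among them MCM2 and MCM6 of the helicase, GINS1 and GINS2 of the complex that joins it, ORC1 of the origin recognition complex, the single-strand binding subunit RPA3 and the nucleotide enzyme TK1. UHRF1, also listed, had no matching name in the table.

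The scale mattered for this list. With RLE factors 39 of 39 had a higher silent mean, with library size alone 37, with rescaled FPKM 34, and with the deposited FPKM only 19, with a median of -0.01. On the deposited FPKM scale the median of all genes was itself -0.25, and 31 of the 39 lay above it. The number with groups apart was 8, 6, 1 and 0 in the same order. Within the expressing group, OE19 was lowest of all 9 lines for 29 of the 39 genes. Without OE19 the median difference was 0.55 and 9 members lay above.

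GINS1 was at 62.3, 87.0 and 55.7 CPM in FLO-1, OAC_5.1_C and JH_EsoAd1, against 5.49 to 35.4 CPM with a median of 22.99 (1.81 ± 0.43, adjusted p = 0.999 by edgeR). GINS2 was at 27.9, 47.1 and 31.6 CPM against 5.85 to 20.3 CPM (1.32 ± 0.32), and ORC1 at 48.3, 25.0 and 30.8 CPM against 6.28 to 20.8 CPM (1.08 ± 0.36). RPA3 was at 31.7, 65.6 and 69.8 CPM against 17.3 to 30.03 CPM (1.27 ± 0.38, adjusted p = 0.76 by edgeR). For RPA3 the distance between FLO-1 and the highest expressing line, OACP4_C, was small beside the spread of the silent lines.

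TK1, thymidine kinase, was at 168, 166 and 134 CPM in the silent lines against 25.9 to 130 CPM. MCM2 was at 192, 211 and 198 CPM against 55.2 to 142 CPM, a tight group in the silent lines (0.80 ± 0.22). MCM6 was at 119, 99.1 and 115 CPM against 49.4 to 96.3 CPM, and its difference of 0.56 became -0.16 on the deposited FPKM scale. CDC6, which loads the helicase, had one of the larger differences of the list (1.65 ± 0.51), but JH_EsoAd1 at 85.3 CPM lay under ESO-51 at 95.6 CPM.

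Because E2F binding at the start site is how these genes are known to be driven, their RefSeq windows (GRCh38.p14, 250 bases before to 50 after the start) were searched for TTTGGCGC, TTTCGCGC, TTTCCCGC and TTTGCCGC on both strands. Of 33 listed genes with a window, 17 (51.5%) held a match, against 1090 of 27305 genes in all (3.99%). The list was drawn up as E2F-driven genes, so this share goes with how it was chosen and does not bear on the groups. Among the 8 genes with groups apart, which these same values picked, 6 had a window and 4 held a match. Among the other 31, 27 had a window and 13 held one, and the split was not tested. The matches of those 4 genes are shown with the matched letters in capitals, in windows at chr3:127598161-127598460 (MCM2, plus strand), chr2:135876394-135876693 (MCM6, minus), chr20:25407423-25407722 (GINS1, plus) and chr16:85688905-85689204 (GINS2, minus).
MCM2: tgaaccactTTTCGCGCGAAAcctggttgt
MCM6 (upstream site): ggctttgcaTTTGGCGCGAAAtccctttcc
MCM6 (site nearer the start): ttggtcaggTTTGGCGCGAAAtctccagct
GINS1: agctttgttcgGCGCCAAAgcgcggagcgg
GINS2: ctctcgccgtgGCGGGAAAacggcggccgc
The matches begin at positions 3, -152, -90, 6 and -31 relative to the start site, where position 1 is the first transcribed base. In MCM2 and at both MCM6 sites the capitals cover 2 overlapping matches, 1 on each strand, and in GINS1 and GINS2 the capitals are a match on the opposite strand. A match describes the letters only.

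Mitosis genes act after replication. Of 34 tested, 30 had a higher silent mean, with a median difference of 0.48. None was called by edgeR and 0 lay entirely above or below, near the shares of all genes (1.43% above, 0.835% below, 0.0% called). TOP2A, a topoisomerase of dividing cells, was at 1163, 1413 and 880 CPM in FLO-1, OAC_5.1_C and JH_EsoAd1 against 189 to 1132 CPM. OE19 was the lowest of the 9 lines for 29 of the 34. On the deposited FPKM scale the median turned to -0.19, above the -0.25 of all genes, and 5 of 34 had a higher silent mean. NDC80, a kinetochore protein, and BIRC5, survivin, overlapped in the same way, with differences of 1.22 ± 0.42 and 1.17 ± 0.53.

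On the ARF side, the p53 pathway was listed. Of 29 tested genes of the pathway and its targets, 15 had a higher and 14 a lower silent mean, with a median difference of 0.10 (-0.35 on the deposited FPKM scale). With 0 called and 0 apart, the list was near the shares of all genes (0.0% called by edgeR, 1.43% above, 0.835% below). FDXR, a ferredoxin reductase gene of the list, was at 21.6, 9.36 and 136 CPM against 11.5 to 31.4 CPM. SESN2, a stress-induced regulator of mTOR, was at 3.77, 19.7 and 22.6 CPM against 13.2 to 145 CPM. In both genes the silent lines differed among themselves, with JH_EsoAd1 highest.

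For MTAP, the pathways next to the enzyme were tested. Of 25 genes of methionine salvage, polyamines and the PRMT5 methylosome, 13 had a higher and 12 a lower silent mean, with a median difference of 0.03 (-0.40 on the deposited FPKM scale). Here too 0 were called or had groups apart, near the shares of all genes (1.43% above, 0.835% below). PRMT5, the methyltransferase inhibited by the substrate of MTAP, was at 26.1, 54.6 and 32.1 CPM against 16.5 to 60.8 CPM. MAT2A, which makes its methyl donor, was at 243, 45.9 and 158 CPM against 65.7 to 339 CPM. RIOK1, a PRMT5 partner, was at 9.66, 11.7 and 18.8 CPM against 15.6 to 48.1 CPM (-1.07 ± 0.37), and SMOX, spermine oxidase, at 209, 33.2 and 17.6 CPM against 4.85 to 32.3 CPM. The high SMOX value was in FLO-1, the silent line that kept some MTAP reads.

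Polycomb proteins, which silence the locus in young cells, and DNA methylation genes were also listed. Of 33 tested, 16 had a higher and 17 a lower silent mean, the median was -0.07 (-0.48 on the deposited FPKM scale), and 0 were called or had groups apart, near the shares of all genes (0.0% called by edgeR, 1.43% above, 0.835% below). CBX7, a Polycomb subunit known to repress CDKN2A, was at 9.62, 14.4 and 5.62 CPM against 12.4 to 62.5 CPM (-1.20 ± 0.48). EZH1 and the demethylase KDM6B had differences of -0.81 ± 0.42 and -0.90 ± 0.47. PCGF2 had no matching name.

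Among lineage programmes, squamous and basal genes lay higher in the silent lines in 33 of 36 tested members, with a median difference of 1.28. On the deposited FPKM scale 28 of 36 did, with a median of 0.26. In the main data 0 were called by edgeR and 1, LY6D, was called higher by DESeq2, against 0.352% of all genes. DESeq2 gave no adjusted p for TP63, FAT2 and KRT4 of this list. Every silent line lay above every expressing line for 6 of 36 (16.7%, against 1.43% of all genes): TP63, DSG3, LY6D, TRIM29, LAMB3 and KRT10. Members such as TP63 and LY6D passed the expression filter only through the silent lines. Their place above was thus largely set in advance, and the share is not evidence of a difference. The list's largest values came from JH_EsoAd1, which was the highest line for 12 of the 36, while ESO-26 and OE33 were lowest for 15 and 10. Without ESO-26 and OE33 the median was 1.04 and 7 members lay above.

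TP63, the master factor of squamous epithelium, was at 7.63, 1.34 and 290 CPM in FLO-1, OAC_5.1_C and JH_EsoAd1, against at most 0.325 CPM in the expressing lines (4.05 ± 2.08, adjusted p = 0.393 by edgeR). DSG3, a squamous desmosomal cadherin, was by contrast even across the silent lines, at 6.56, 4.52 and 7.14 CPM, against at most 0.864 CPM (2.52 ± 0.24, adjusted p = 0.962 by edgeR and 0.0485 by limma-trend). LY6D, a surface protein of stratified epithelium, was at 1.08, 1.76 and 0.837 CPM against at most 0.0893 CPM (adjusted p = 0.393 by edgeR and 0.0485 by limma-trend). LY6D and DSG3 thus differed in level from near 0 to a few CPM.

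TRIM29, a basal-cell protein, was at 166, 76.9 and 49.9 CPM against 0.0577 to 47.3 CPM, and LAMB3, a chain of laminin-332, at 307, 1720 and 383 CPM against 0.808 to 304 CPM. In both, the nearest expressing lines all but touched the silent range. KRT10 was at 14.2, 36.6 and 22.5 CPM against 5.65 to 11.6 CPM. KRT4, a keratin of oesophageal epithelium, was high in JH_EsoAd1 (520 CPM), moderate in FLO-1 (7.01 CPM) and low in OAC_5.1_C (0.170 CPM), which lay inside the expressing range of 0 to 3.46 CPM. FAT2, an atypical cadherin, was at 27.7 CPM in JH_EsoAd1 and under 1 CPM in the other 8 lines.

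Columnar and intestinal genes lay lower in the silent lines in 20 of 28 tested members, with a median difference of -0.82. Of the 28, 0 had groups apart and 0 were called by edgeR, near the shares of all genes (0.0% called by edgeR, 1.43% above, 0.835% below). On the deposited FPKM scale 24 of 28 lay lower. Across the processing alternatives the list's median ran from -1.49 to -0.46. DESeq2 called 3 lower: CDH17, LGALS4 and VIL1 (adjusted p = 5.13e-06, 0.000334 and 0.0421), against 0.196% of all genes. CDH17, intestinal cadherin, was at 0.141, 0.318 and 0.394 CPM in the silent lines. In the expressing lines it was at 689, 794 and 789 CPM in OE19, SK-GT-4 and ESO-51 but at 0.359, 0.635 and 0.458 CPM in OACP4_C, ESO-26 and OE33. The low level was therefore shared by all 3 silent lines and 3 of 6 expressing lines.

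LGALS4, an intestinal galectin, followed the same division, with 172 to 1676 CPM in OE19, SK-GT-4 and ESO-51 and 0.231 to 1.79 CPM in the other 6 lines, the silent ones included. VIL1, villin, was high in SK-GT-4 (340 CPM) and ESO-51 (284 CPM) only and at most 1.88 CPM elsewhere. HNF4G, a nuclear receptor of intestinal epithelium, was at 0.794 to 2.61 CPM against 0.0763 to 113 CPM. CDX2, the intestinal homeobox factor, was at 7.404, 2.08 and 0.443 CPM against 3.46 to 100 CPM. The other 8 members had a higher silent mean. Among them, named after their values were seen, AGR2, a secretory-cell disulphide isomerase, was at 338 to 1282 CPM against 0.687 to 5170 CPM (median 116, difference 3.17). The epithelial factor ELF3 was at 124 to 177 CPM against 0.346 to 261 CPM (median 200, difference 1.73). In both, the difference of means was positive although the silent range lay inside the expressing one.

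**Figure D4:**
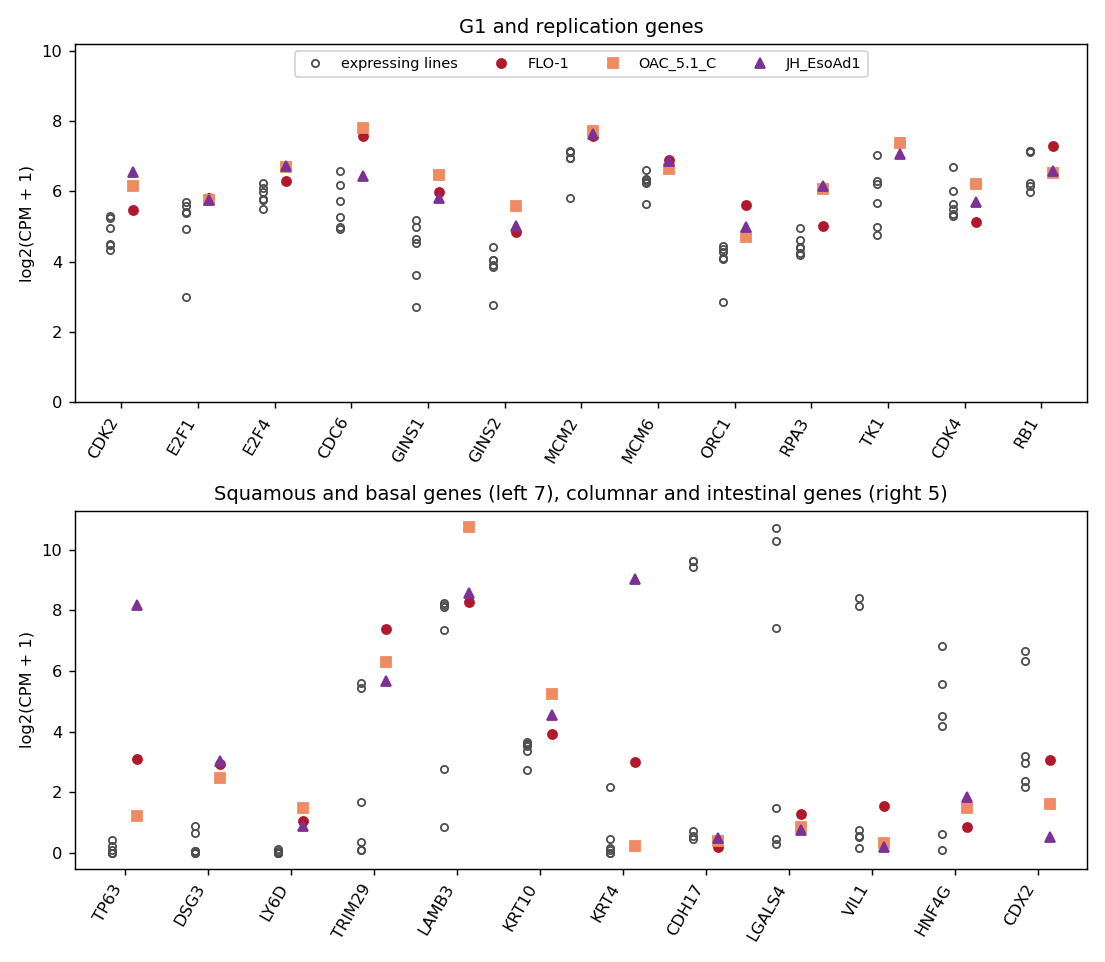
G1 and replication genes (upper panel) and squamous, basal, columnar and intestinal genes (lower panel) as log2(CPM + 1) per line. Open circles are the 6 expressing lines and filled symbols the 3 silent lines: replication genes lie close above the expressing range, TP63 and KRT4 reach 290 and 520 CPM in JH_EsoAd1, and CDH17 is high in 3 expressing lines only.

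Epithelial junction genes were higher on average in the silent lines in 24 of 30 tested members (median 1.14, 0 called), but without ESO-26 and OE33 the median was -0.32. CLDN1, a tight junction claudin, was the 1 member of 30 with groups apart (3.33%, against 1.43% of all genes), at 156, 128 and 65.2 CPM against 0.115 to 60.4 CPM. Mesenchymal and matrix genes had a median difference of 1.51 over 26 tested, with 19 higher and 7 lower. On the deposited FPKM scale that median was 0.12. Of the 26, 0 were called by edgeR and 0 had groups apart, near the shares of all genes (0.0% called by edgeR, 1.43% above, 0.835% below). LOX, which crosslinks collagen, was at 2.06, 13.0 and 8.23 CPM against 0.692 to 2.56 CPM, the receptor kinase AXL at 129, 1494 and 233 CPM against 1.07 to 161 CPM, and COL6A3 at 0.218 to 2.99 CPM against 0.0577 to 0.701 CPM. Among the 7 with a lower silent mean were a pair of well-known mesenchymal markers, named after their values were seen. VIM, vimentin, was at 0.692 to 21.8 CPM against 0.032 to 1700 CPM with a median of 123 (difference -2.11), and ZEB1, a repressor of epithelial genes, at 0.103 to 9.80 CPM against 0.0960 to 86.7 CPM with a median of 30.7 (-2.33).

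Secreted genes linked with senescence, a state that p16 is known to enforce, had a median difference of 1.30 over 29 tested, with 21 higher, 8 lower and 0 called by edgeR, and 0.69 without ESO-26 and OE33. On the deposited FPKM scale the median was 0.28, with 16 higher and 13 lower, and with rescaled FPKM 0.40. IGFBP7 was the 1 member with groups apart (3.45%, against 1.43% of all genes) and the 1 called higher by DESeq2 (0.352% of all genes). IGFBP4, another binding protein, was at 120, 320 and 612 CPM against 5.58 to 274 CPM, while MMP1, a collagenase, was at 0.192, 1.10 and 6.75 CPM against 0.305 to 2553 CPM. MMP12 had no matching name. Members thus pointed both ways.

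The interferon genes themselves lie in the 9p21 stretch, and interferon response and MHC class I genes were therefore listed. Of 42 tested, 15 had a higher and 27 a lower silent mean (median -0.26), and on the deposited FPKM scale 5 had a higher and 37 a lower one (median -0.60, against -0.25 over all genes). By edgeR 0 were called and 0 had groups apart, near the shares of all genes (1.43% above, 0.835% below). MX1, an antiviral GTPase, was at 14.5, 13.8 and 8.32 CPM in the silent lines against 0.404 to 446 CPM, with ESO-26, SK-GT-4 and OE19 lower than all silent lines. ISG20, an RNA exonuclease, was at 4.70, 4.99 and 6.16 CPM against 0.866 to 102 CPM.

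Markers of other cell types were mostly low, with exceptions given below. The samples are cultured tumour lines read in bulk, and which cells of a culture held these reads was not measured. Of 17 listed haematopoietic, endothelial and fibroblast markers, 16 matched and 8 were tested, with a median difference of -0.44 and 0 called by edgeR. CDH5, an endothelial cadherin, was the 1 of 8 with groups apart (12.5%, against 1.43% of all genes). The expression filter kept CDH5 through the silent lines alone, so its place above was largely set in advance. CDH5 was also the 1 called higher by DESeq2 (0.352% of all genes), at 8.03, 0.743 and 29.7 CPM against at most 0.223 CPM. KDR, a receptor of endothelial cells, was at 1.40, 0.0212 and 0.0985 CPM in FLO-1, OAC_5.1_C and JH_EsoAd1 against at most 0.0577 CPM, and VWF, von Willebrand factor, at 0.0384, 3.61 and 0.345 CPM against 0 to 1.34 CPM. The endothelial receptor TEK, a 9p21 neighbour, was at 0.115, 0.318 and 1.58 CPM against at most 0.229 CPM. Each of the last 3 was thus above the expressing range in at least 1 silent line, at a few CPM or less, and the part of this in other results was not tested. The leukocyte marker PTPRC was at most 1.87 CPM in the silent lines. The fibroblast markers went both ways. DCN, a fibroblast proteoglycan, had 0 counts in FLO-1 and JH_EsoAd1 and 13.5 CPM in ESO-26. COL3A1 was at most 2.805 CPM in the silent lines and 311.5 CPM in ESO-26, and PDGFRB at most 0.5518 CPM against at most 8.283 CPM. LUM was at 31.07 CPM in OAC_5.1_C against at most 0.6925 CPM in the expressing lines. COL1A1 was at 9.927, 15.75 and 46.2 CPM in FLO-1, OAC_5.1_C and JH_EsoAd1 against 0.5771 to 26.02 CPM (median 3.691). PECAM1 had no matching name.

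**Figure D5:**
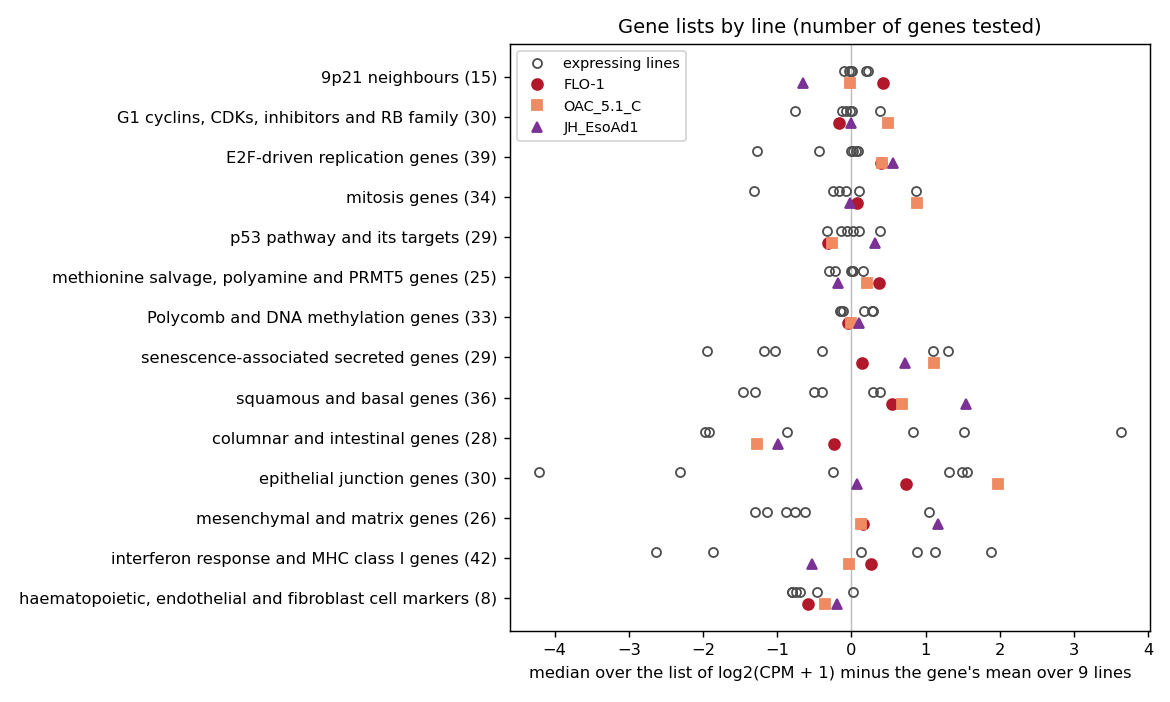
Each of the 14 gene lists by line: the median over its tested genes of log2(CPM + 1) minus the gene's mean over the 9 lines. Open circles are the 6 expressing lines and filled symbols the 3 silent lines, which lie above all expressing lines for replication genes (0.40 to 0.56 against at most 0.09) and for squamous and basal genes (0.55 to 1.55 against at most 0.39).

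Genes with groups apart were spread over the genome with uneven shares. Chromosome 15 held 19 of the 166 genes below, 2.87% of its 663 tested genes against 0.835% of all genes, and 4 of those above. They include TRPM7, a channel kinase, at 79.2, 77.4 and 78.7 CPM in FLO-1, OAC_5.1_C and JH_EsoAd1 against 89.1 to 170 CPM, and EIF3J, a translation initiation factor, at 39.3, 45.5 and 54.2 CPM against 60.5 to 135 CPM. Also there was FAM219B, at 15.4, 15.6 and 16.01 CPM against 19.6 to 71.1 CPM. The median difference over all tested genes of chromosome 15 was -0.17, and that of chromosome 13 was -0.18. Chromosome 9 held 9 genes above and 3 below of 808. Copy number was not measured, and these genes were named after their values were seen.

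Most mixed pairs were less alike than the silent pairs. Across the 19876 genes tested, Pearson r on log2(CPM + 1) was 0.875 between FLO-1 and OAC_5.1_C, and at most 0.893 for a silent pair, between OAC_5.1_C and JH_EsoAd1, with a median of 0.889 over the 3 pairs. Genes are not independent replicates, and all pairs share the same gene set. Over 15 pairs of expressing lines r ran from 0.791 to 0.886 with a median of 0.830, and over 18 mixed pairs from 0.812 to 0.912 with a median of 0.850. Of the mixed pairs, 15 lay under the lowest silent pair and 3 over it, all 3 with OACP4_C. The highest of all was OACP4_C with OAC_5.1_C at 0.912. Of the 284 genes above, FLO-1 was the highest silent line for 100, OAC_5.1_C for 95 and JH_EsoAd1 for 89, so no single line supplied the set. Their median range among the silent lines was 0.72 log2 units, against 0.88 for all genes tested, and 18 of them spanned over 4 log2 units.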

How the data were processed

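RNA-seq of 9 cell lines was used, 1 library column per line. Reads were processed with STAR 2.6.1d, FastQC 0.11.7 and R 3.6.1 on GRCh37, per the submitters' processing notes; the counter, annotation and strand setting are not given in the sources used here. The deposited series table holds raw read counts for 52158 named genes, and 1 blank row (0.00485% to 0.00965% of counts) was left out. The deposited per-line files hold FPKM values, used as an alternative.

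Levels are CPM with TMM factors, and differences are between group means of log2(CPM + 1). Genes passing filterByExpr were tested with edgeR 4.0.16 (quasi-likelihood, Benjamini-Hochberg adjustment over 19876 genes, threshold 0.05), with DESeq2 1.42.0 and limma 3.58.1 (limma-trend) as alternatives, in R 4.3.3. CDKN2A, CDKN2B and MTAP were left out of tests because they chose or follow the groups. The edgeR fit alone was tested on simulated data, with the same dispersion for every gene. That test does not cover the other fits or the spread between these lines. Named genes were those called, or else the 10 in each direction with the smallest p among protein-coding genes whose groups do not overlap, then the members of each list with the smallest p and genes named for their role. The groups and the 14 gene lists were chosen with earlier results of these data known. Intervals and floors cover counting error only. Some listed genes entered the list counts and medians, but their own values are not reported here.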

Additional observations from a re-analysis of the deposited data

Results flagged for a closer look

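In 11 of 75 named genes, 1 of the 6 expressing lines lay far from the other 5, by Dixon's ratio test at the 95% level; chance alone gives this in about 1 in 20 groups. OE19 was the low line in 4 cell cycle genes. It held 5.85 CPM of GINS2 (others 13.4 to 20.3), 6.28 CPM of ORC1 (others 15.8 to 20.8) and 6.89 CPM of E2F1 (others 29.3 to 50.8). It also held 55.2 CPM of MCM2 (others 122 to 142). For these genes the distance of OE19 widens the difference of means but does not set which groups overlap.

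ESO-26 was the high line for 4 genes: DCN at 13.5 CPM (others at most 0.6251), VGLL3 at 0.346 CPM (others at most 0.128), DIO2 at 0.173 CPM (others at most 0.0446) and HTRA3 at 0.115 CPM (others at most 0.032). The last 3 remained below every silent line. VGLL3, DIO2 and HTRA3 held only 6, 3 and 2 counts in ESO-26, the smallest library, where the floor of 3 counts is 0.173 CPM. Those 3 flags therefore rest on few reads. KRT4 was high in SK-GT-4 at 3.46 CPM (others at most 0.361), CDH5 in ESO-51 at 0.223 CPM (others at most 0.0684), and KRT10 was low in OE33 at 5.65 CPM (others 9.31 to 11.6).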

How the results depend on the processing

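The number of genes called higher was 0 with edgeR, 70 with DESeq2, 10 with limma-trend, 1 with a filter of 5 CPM in 3 lines, 1 with no filter, 3 with rescaled FPKM (an alternative chosen after seeing the data), and 0 to 6 when 1 line was left out; 39 were called lower with DESeq2. Genes with every silent line above numbered 284, against 56 with deposited FPKM, 135 with the stricter filter, 577 with no filter, 154 with rescaled FPKM, 782 without ESO-26 and OE33, 22 with a gap of at least 1 log2 unit, and 372 to 800 when 1 line was left out. Genes below numbered 166, against 865 with deposited FPKM, 695 without ESO-26 and OE33, 2 with the gap, and 244 to 545 when 1 line was left out. Fewer lines make separation of the groups easier by construction. In the per-line file of JH_EsoAd1, 77.3% of the counts lie outside the named table. With deposited FPKM the median gene differed by -0.25, and the part of those counts in this shift was not tested.

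Of 72 named genes, 64 kept their direction under every alternative that gave them a value, which was all 20 for 45 of them, and 15 to 19 for the other 19. The 8 that turned had small or uneven differences, and the cause was not tested. On deposited FPKM E2F4 was -0.04, CDK6 -0.48, RB1 -0.47, PRMT5 -0.35 and MCM6 -0.16. With rescaled FPKM RB1 was -0.007 and PRMT5 -0.073, with library size alone PRMT5 was -0.056, and with DESeq2 CDK6 was -0.26. The main value of CDK6, 0.244, is a difference of mean log2(CPM + 1), whereas the DESeq2 value is a fold change from a count model. The fold change of CDK6 in the main edgeR fit was also negative, at -0.264, so this turn goes with the measure. Leaving out 1 line at a time, CDK4 ran from -0.343 to 0.204 (turned without OE33 or FLO-1), CDK6 from -0.186 to 0.699 (OE19 or FLO-1) and RB1 from -0.079 to 0.302 (FLO-1). MAT2A ran from -0.616 to 0.566 (turned without OE19 or OAC_5.1_C), PRMT5 from -0.258 to 0.267 (SK-GT-4, ESO-51 or OAC_5.1_C) and FDXR from -0.326 to 1.522 (JH_EsoAd1). CDK4 was 0.058 without ESO-26 and OE33. No paired analysis was possible because the lines of the groups are unrelated and their numbers follow accession order only.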
